A study of Mus musculus with 2 samples.

Results

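The 7 genes described here make up the interferon gamma and CXCR3 chemokine axis, and they were found by their symbols among the 27998 genes listed for both single-cell libraries. They were Ifng (ENSMUSG00000055170), the receptor genes Ifngr1 (ENSMUSG00000020009) and Ifngr2 (ENSMUSG00000022965), the chemokines Cxcl9 (ENSMUSG00000029417) and Cxcl10 (ENSMUSG00000034855), their receptor Cxcr3 (ENSMUSG00000050232), and the target gene Gbp2 (ENSMUSG00000028270). Cxcl11, the remaining ligand of CXCR3, is not analysed here. The study asked how activation of TLR9, the endosomal receptor for unmethylated CpG DNA, changed the immune cells of large skin wounds. Both libraries came from male wild-type C57BL/6J mice with a large circular wound of 1.8 cm diameter on the back, collected 2 days after the scab had detached. WT_LW wounds were given PBS on days 0, 3 and 6, and TLR9agonist_LW wounds were given ODN2395, a CpG oligodeoxynucleotide that activates TLR9, on the same days. The labels speak of PBS spray for WT_LW, while the study's text also describes a control oligonucleotide and dropwise addition or injection. Epidermis and dermis were separated with enzymes, dissociated and recombined, and cells of several mice were pooled into each library.

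Interferon gamma is a cytokine that T and NK cells secrete when they are activated. It binds a receptor made of the IFNGR1 and IFNGR2 chains, which signal through JAK1 and JAK2, and it induces among others the transcription factor Irf1, the guanylate-binding GTPases and the chemokines CXCL9 and CXCL10. CXCL9 and CXCL10 attract cells that carry CXCR3, which is common on type 1 effector T cells and NK cells, so that the axis can draw in the cells that make interferon gamma. Type I interferons and inflammatory signals through NF-kB can induce Cxcl10 as well.

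Each group was 1 library, so no test between the groups was possible. Levels are given as CPM, the per-million UMI count of a gene among all UMIs of the cells named, ratios are log2 of TLR9agonist_LW over WT_LW, and 95% intervals are exact and cover counting error only, not the difference between mice. After filters and removal of likely doublets, 10395 cells with 85681280 UMIs remained in WT_LW, and TLR9agonist_LW had 11811 cells with 111120573 UMIs, with medians of 5519 and 6080 UMIs per cell, and the libraries shared 47 barcodes. The cell classes carried their own markers: the 6 T cell markers summed to 2745 and 2619 CPM in T and NK cells and to between 40.8 and 98.2 CPM in fibroblasts, keratinocytes, endothelial cells, pericytes, Schwann cells, and macrophages and dendritic cells. Fibroblast markers spread more widely: all 6 summed to 60482 and 67607 CPM in fibroblasts. They reached 8792 and 6524 CPM in pericytes, 7242 and 6085 in Schwann cells, and 1107 and 2364 CPM in endothelial cells. The 6 B cell markers summed to 396 and 5.68 CPM in T and NK cells. Droplets hold some free RNA of other cells, so the level in classes that should lack a gene is named beside the result it touches. In the whole libraries the median gene had a log2 ratio of -0.39, and ratios are therefore also given relative to the median gene.

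The start regions of the chemokine genes are shown because Cxcl9 and Cxcl10, which lie next to each other on chromosome 5, did not move together in all cell types. All 7 genes had an entry among the RefSeq promoters (GRCm38.p6), and 250 bases before each start were searched on both strands for the interferon gamma-activated site TTCNNNGAA, for GAAANNGAAA as the pair of half-sites of the interferon-stimulated response element, and for GGGNNTTNCC, a pattern of NF-kB sites. The patterns were chosen after the sequences had been seen, and of 32851 promoters 7.02%, 2.98% and 4.11% held them. Capitals mark a match in the windows below, which are written 5′ to 3′ along the gene's strand.
Cxcl9, chr5:92328180-92328229, minus strand: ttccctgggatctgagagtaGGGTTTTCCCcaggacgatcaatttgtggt
Cxcl10, chr5:92348963-92349122, minus strand: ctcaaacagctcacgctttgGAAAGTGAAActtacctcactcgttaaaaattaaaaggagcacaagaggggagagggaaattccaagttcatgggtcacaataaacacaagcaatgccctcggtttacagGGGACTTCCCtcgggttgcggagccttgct
Gbp2, chr3:142620584-142620633, plus strand: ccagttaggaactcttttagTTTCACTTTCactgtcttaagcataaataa
Ifng, chr10:118440796-118440825, plus strand: tTTCAGAGAAtcccacaagaatggcacagg

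The Cxcl9 window held the NF-kB pattern 130 bases before the start, and no other match. Cxcl10 held the response element pair 213 bases before the start and the NF-kB pattern at 103 bases. The starts of both genes are 20.81 kb apart. Gbp2 held the response element pair on the opposite strand, 59 bases before the start. The match in Ifng was the interferon gamma-activated site, at the far end of the window. Ifngr2 held the NF-kB pattern on the opposite strand, and Ifngr1 and Cxcr3 held none of the 3 patterns in this window.

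Over all cells, Cxcl10 was higher in TLR9agonist_LW, and Ifng and Cxcr3 were lower. Ifng stood at 43.1 CPM (3689 UMIs) in WT_LW and at 15.7 CPM (1743 UMIs) in TLR9agonist_LW, a log2 ratio of -1.46 (-1.54 to -1.37). Cxcr3 went the same way, from 13.8 to 5.44 CPM (-1.34). Cxcl10 was at 243 and 425 CPM (log2 ratio 0.81, interval 0.78 to 0.83), and Cxcl9 at 49.0 and 67.2 CPM (0.46). Ifngr1 was at 196 and 149 CPM, Ifngr2 at 67.2 and 51.2 CPM, and Gbp2 at 44.4 and 35.0 CPM, and relative to the median gene their log2 ratios were -0.013, -0.0036 and 0.044. A gene is counted as higher or lower when it had at least 50 UMIs over both libraries and differed by at least 1.5-fold. By that count 1 of the 7 genes was higher and 2 were lower, beside 7.45% and 34.2% of all genes, so a lower level as such was common. With the levels of TLR9agonist_LW weighted by the class shares of WT_LW, Ifng would have been at 19.2 CPM, Cxcr3 at 7.04, Cxcl9 at 66.4 and Cxcl10 at 430.3 CPM, so that each kept its direction with the class shares held equal. Ifngr1 at 187.5 CPM and Ifngr2 at 62.4 CPM kept theirs as well. Gbp2 would have been at 47.8 CPM, above the 44.4 CPM of WT_LW, so its direction depended on the class shares.

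**Figure D1:**
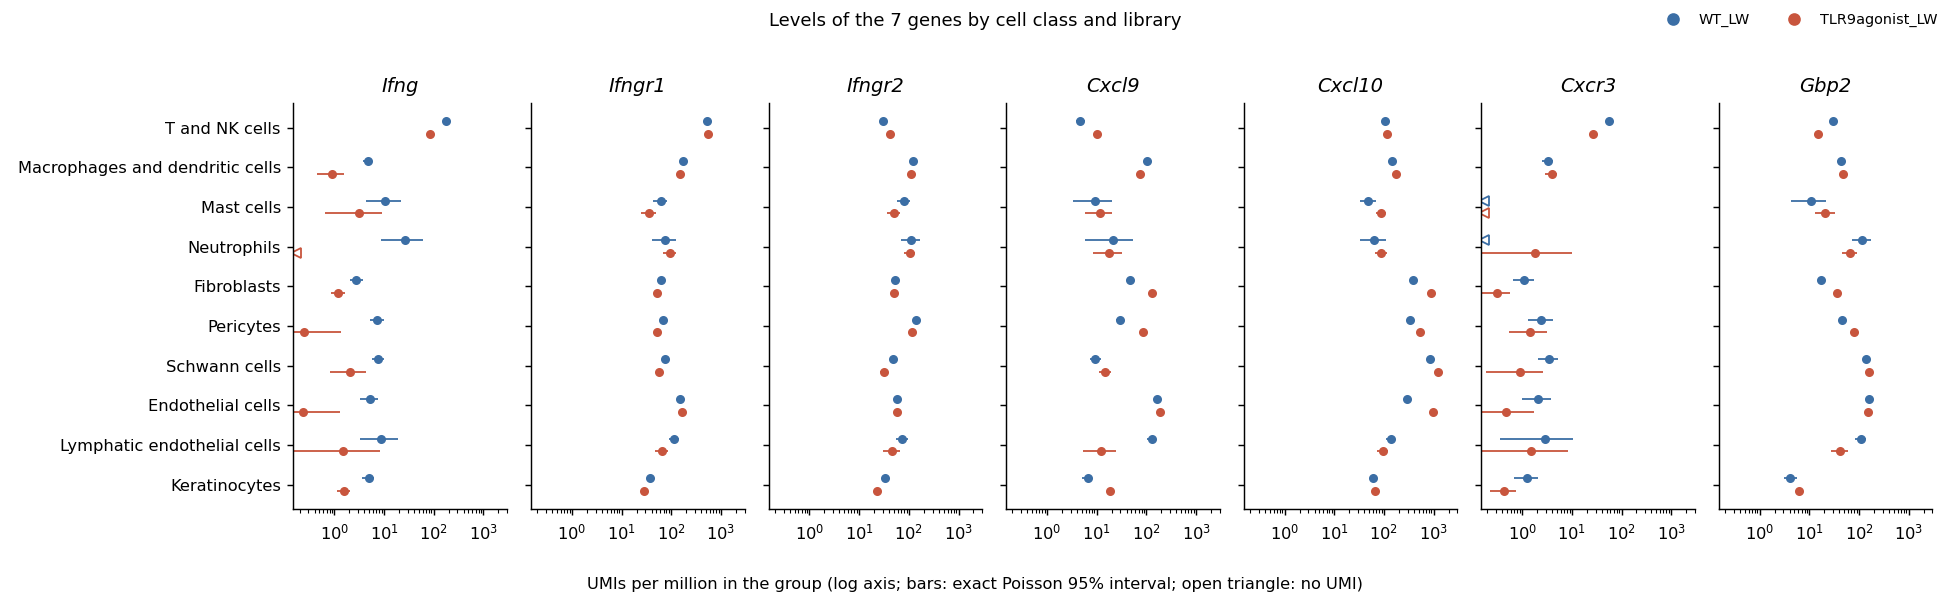
Levels of the 7 genes in 10 cell classes of WT_LW (blue) and TLR9agonist_LW (red), in CPM on a log axis with exact Poisson 95% intervals, and an open triangle where no UMI was found. Ifng and Cxcr3 were highest in T and NK cells (178 and 83.8 CPM for Ifng), while Cxcl10 was highest in Schwann cells in both libraries (859 and 1199 CPM).

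T and NK cells (3697 and 3915 cells) held 88.5% and 91.5% of the Ifng UMIs. In these cells the level of Ifng was 178 CPM in the control and 83.8 CPM with the agonist, a log2 ratio of -1.09 (-1.17 to -0.998), or -0.82 relative to the median gene. In cells thinned to 1500 UMIs, 14.6% and 5.67% had an Ifng UMI (23.1% and 9.30% without thinning). In fibroblasts, which should not make Ifng, the thinned shares were 0.467% and 0.257%. The message was unevenly spread: 50% of the UMIs lay in 105 cells of WT_LW and in 31 cells of TLR9agonist_LW.

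Outside T and NK cells Ifng was low, and it was lower in TLR9agonist_LW in the 4 other classes with enough UMIs. It was at 4.71 and 0.88 CPM in macrophages and dendritic cells, 7.65 and 2.07 CPM in Schwann cells, 4.86 and 1.56 CPM in keratinocytes, and 2.78 and 1.19 CPM in fibroblasts. The 6 T cell markers, all detected in each of these classes, summed to 59.2 and 40.8 CPM in macrophages and dendritic cells, 93.7 and 46.8 in Schwann cells, 68.7 and 40.8 in keratinocytes, and 56.0 and 53.0 CPM in fibroblasts. The T cell message in these cells was thus also lower or level, and its part in their Ifng was not tested.

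Among the subsets, CD8-like cells (398 and 202 cells) had the highest Ifng level in both libraries: 434 CPM in the control and 396 CPM with the agonist, a log2 ratio of -0.13 (-0.31 to 0.05). Their thinned shares with an Ifng UMI were 31.4% and 25%. NK-like cells followed with 359 and 248 CPM, but only 51 of them were in TLR9agonist_LW, and 18 of their 68 UMIs lay in 1 cell. CD4 effector-like cells, the largest group of WT_LW with 861 cells (909 in TLR9agonist_LW), were at 198 and 127 CPM (log2 ratio -0.65, interval -0.80 to -0.49). One cell held 154 of the 585 UMIs of the latter, and without the richest cell of each library the ratio was -0.96. Their thinned shares were 14.2% and 6.67%.

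The subset led by Ifitm1, Ifitm2 and Fam78a (465 and 206 cells) was at 255 and 185 CPM, and the one led by Klf3, Gramd3 and Gimap6 (411 and 233 cells) at 183 and 190 CPM. Cycling cells had 114 and 77.7 CPM. Treg-like cells had little Ifng, 11.98 and 16.9 CPM from 19 and 18 UMIs. The γδT17-like cells, named by markers that include Cd163l1, Blk, Sox13, Il17a and Il23r, which belong to T cells that make IL-17, were also low, at 23.7 and 2.88 CPM. These cells came to 13.8% of T and NK cells (512 cells) in WT_LW and to 43.4% (1700 cells) in TLR9agonist_LW, and they lay in a sub-cluster led by Npnt, Bcl2a1a and Il17f (180 and 1003 cells) and in another led by Sox13, Zbtb16 and Cd163l1 (332 and 697 cells). Of their 49 Ifng UMIs in WT_LW, 47 lay in the second. The 6 markers that name these cells summed to 3278 CPM in WT_LW and 11902.5 CPM in TLR9agonist_LW. The subset was thus not alike in both libraries, and the part of this in its other ratios was not tested.

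By source, CD8-like cells held 23.4% and 24.2% of the Ifng UMIs of T and NK cells, CD4 effector-like cells 26.7% and 36.7%, NK-like cells 10.4% and 4.27%, and γδT17-like cells 1.501% and 1.38%. The CD4 effector-like share in TLR9agonist_LW includes the rich cell named above. Of the 3264 and 1594 UMIs, the subset led by Ifitm1, Ifitm2 and Fam78a held 482 and 143. Cycling cells held 386 and 155, and the subset led by Klf3, Gramd3 and Gimap6 held 322 and 197. Without the γδT17-like cells, Ifng was at 197 and 138 CPM (log2 ratio -0.52, interval -0.60 to -0.43). With the subset shares of WT_LW, the levels of TLR9agonist_LW gave 136 CPM, between its own 83.8 and the 178 of WT_LW. The lower Ifng of T and NK cells thus went with the larger share of γδT17-like cells and also with lower levels within other subsets, among them CD4 effector-like cells.

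**Figure D2:**
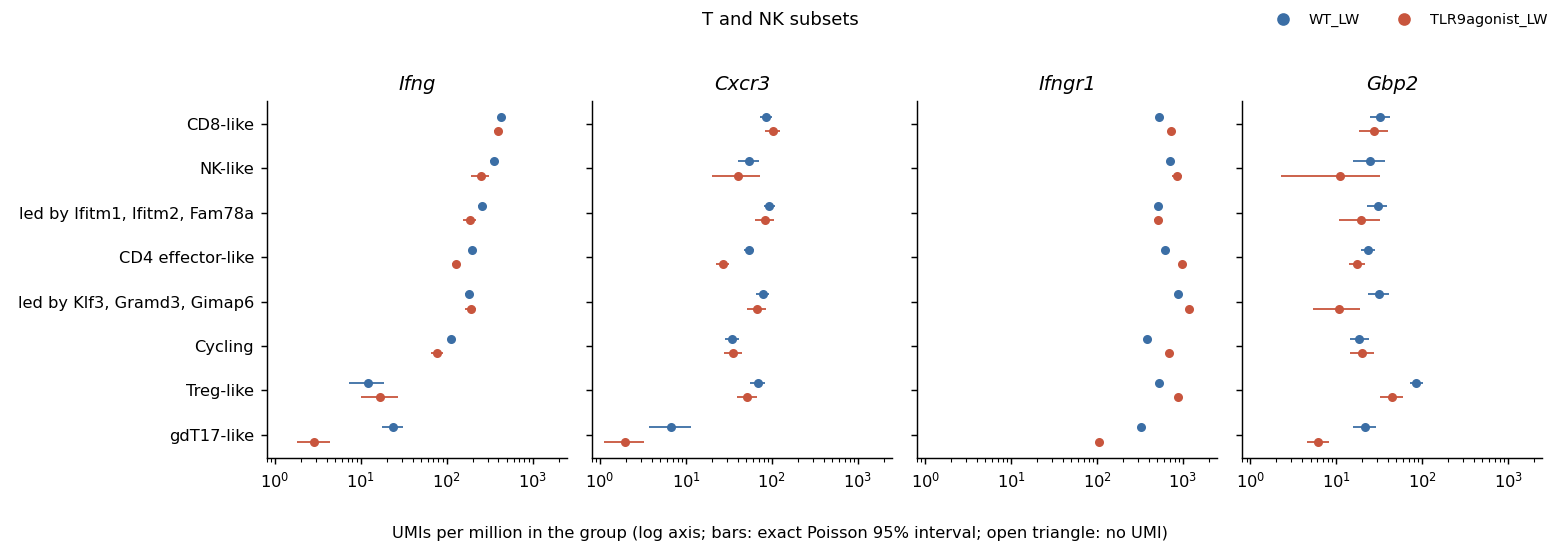
Levels of Ifng, Cxcr3, Ifngr1 and Gbp2 in 8 subsets of T and NK cells, with WT_LW in blue and TLR9agonist_LW in red. The axis is CPM on a log scale, with exact Poisson 95% intervals. Left out are 3 subsets that matched no marker list. CD8-like cells sit highest for Ifng in both libraries, γδT17-like cells (gdT17-like) sit lowest for Ifng and Cxcr3 in TLR9agonist_LW, and Ifngr1 lies to the left in these cells and to the right in CD4 effector-like and Treg-like cells.

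The receptor chains had separate distributions. Ifngr1, which binds the cytokine, was held mostly by T and NK cells (58.4% and 62.8% of its UMIs) and by macrophages and dendritic cells (20.7% and 12.6%). Ifngr2, the signalling chain, was held mostly by macrophages and dendritic cells (41.1% and 26.6%) and fibroblasts (14.9% and 28.8%). In the former, Ifngr1 was at 174 and 153 CPM and Ifngr2 at 119 and 112 CPM, and relative to the median gene both ratios were above 0 (0.07 and 0.18). Pericytes had 138 and 113 CPM of Ifngr2, and fibroblasts 52.9 and 50.2 CPM.

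In T and NK cells as a whole Ifngr1 was nearly level, at 534 and 545 CPM (0.03), but the subsets went opposite ways. It was higher in TLR9agonist_LW in CD4 effector-like cells (614 and 982 CPM, 0.68), Treg-like cells (528 and 884 CPM, 0.74) and cycling cells (380 and 685 CPM, 0.85). In CD8-like cells it was at 525 and 715 CPM, a ratio of 0.45 that stayed below 1.5-fold. In γδT17-like cells it was at 325 and 104 CPM (log2 ratio -1.64, interval -1.79 to -1.49), with thinned shares of 33.8% and 13.3%. Both sub-clusters showed this, the one led by Npnt with 394 and 93.2 CPM and the one led by Sox13 with 284 and 123 CPM. The markers that name γδT17-like cells also differed between the libraries (3278 and 11902.5 CPM), and their part in this ratio was not tested. Without γδT17-like cells Ifngr1 was at 561 and 841 CPM. Ifngr2 was not lower in the same cells: it was at 50.2 and 60.2 CPM in γδT17-like cells, which held 57.5% of the Ifngr2 UMIs of T and NK cells in TLR9agonist_LW, and at 9.64 and 11.3 CPM in CD8-like cells.

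Cxcl10 was highest in stromal cells and nerve-associated cells. Schwann cells had the highest levels, 859 and 1199 CPM (log2 ratio 0.48, below 1.5-fold), and thinned shares of 37.4% and 39.4%. Fibroblasts were at 380 and 896 CPM (log2 ratio 1.24, interval 1.20 to 1.28), with 28.6% and 47.1% of thinned cells positive. Endothelial cells were at 295 and 966 CPM, a ratio of 1.71 (1.62 to 1.80), with thinned shares of 14.5% and 33.5%, and pericytes at 334 and 544 CPM (0.70, or 0.58 and thus just under 1.5-fold without the richest cell of each library). Macrophages and dendritic cells had 145 and 172 CPM (0.24) and keratinocytes 60.4 and 67.3 CPM. T and NK cells had 104 and 113 CPM with 9.56% and 12.3% of thinned cells positive, and the part of free RNA in this level was not tested. Fibroblast markers summed to 8792 and 6524 CPM in pericytes, 7242 and 6085 in Schwann cells, and 1107 and 2364 CPM in endothelial cells. The part of fibroblast RNA in the Cxcl10, Cxcl9 and Gbp2 levels of those classes was not tested. Of all Cxcl10 UMIs, fibroblasts held 29.6% in the control library and 62.0% in the agonist library, which also had more of these cells (868 and 2337).

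Cxcl9 was held by other cells in the control wound. Macrophages and dendritic cells had 48.4% of its UMIs in WT_LW and 13.8% in TLR9agonist_LW, and fibroblasts 17.7% and 57.8%. The level in fibroblasts was 45.8 and 132 CPM (log2 ratio 1.53, interval 1.41 to 1.64), and that in pericytes 28.9 and 85.9 CPM (1.57). In macrophages and dendritic cells it was 101.8 and 75.9 CPM, a ratio of -0.42 (-0.53 to -0.31) that stayed below 1.5-fold, and that was 0.40 when cells were classed one by one by their markers. Keratinocytes had 6.54 and 18.9 CPM, but with equal weight for each cell the ratio was 0.24 in place of 1.53. T and NK cells had 4.69 and 10.0 CPM, from 86 UMIs in 78 cells and 191 UMIs in 176 cells with at most 4 in any cell. The 6 fibroblast markers summed to 1441 and 2564 CPM in T and NK cells, and the part of free RNA in their Cxcl9 was not tested.

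**Figure D3:**
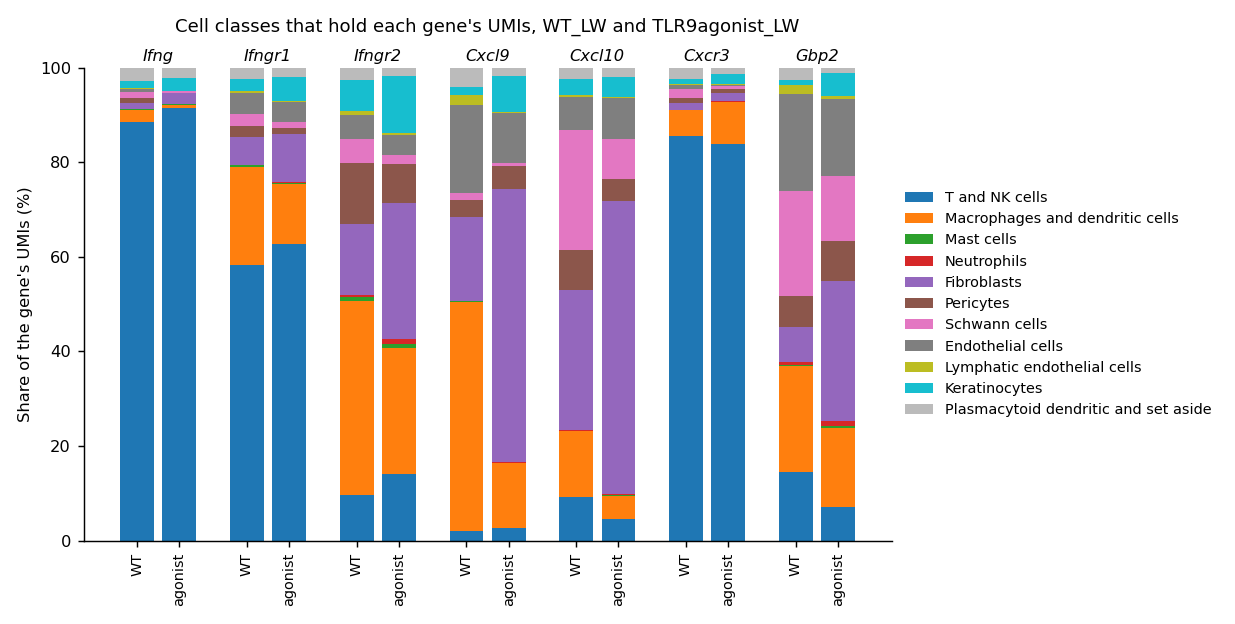
Share of each gene's UMIs held by each cell class, in percent, with WT_LW and TLR9agonist_LW side by side for each gene. T and NK cells hold most of Ifng (88.5% and 91.5%) in both bars, and fibroblasts take a larger part of Cxcl9 (17.7% and 57.8%) and Cxcl10 (29.6% and 62.0%) in TLR9agonist_LW.

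In stromal cells a few cells carried much of the Cxcl9 message. In fibroblasts of TLR9agonist_LW 22 cells held 50% of the 4315 UMIs, and in WT_LW 7 cells held 50% of the 743 UMIs. In endothelial cells Cxcl9 was at 160 and 190 CPM (0.24), but 1 cell of WT_LW held 519 of its 784 UMIs. Without the richest cell of each library the levels were 54.6 and 170 CPM, a ratio of 1.64, and the thinned shares, which do not depend on such cells, were 3.71% and 12.3%. In lymphatic endothelial cells 65 of 86 UMIs of WT_LW lay in 1 cell, so the size of the difference between 127 and 12.1 CPM depends on it. Without that cell WT_LW was at 31.3 CPM, still the higher level. Cxcl10 was broader: 217 fibroblasts of TLR9agonist_LW held 50% of it.

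The fibroblasts lay in 3 clusters, and both chemokines were higher in TLR9agonist_LW in the one led by Clec3b, Nov and Cilp (482 and 1260 cells). In that cluster Cxcl10 was at 271 and 1093 CPM (log2 ratio 2.01, interval 1.96 to 2.07), with 21.6% and 52.7% of thinned cells positive, and Cxcl9 at 55.7 and 199 CPM (1.84). In the fibroblasts led by Crabp1, Prss35 and Col25a1 (334 and 1042 cells), Cxcl10 was at 581 and 568 CPM (-0.03, -0.10 to 0.03), with shares of 38.2% and 40.3%, and Cxcl9 at 13.1 and 16.0 CPM. The former thus had the lower Cxcl10 of both in WT_LW and the higher in TLR9agonist_LW. Gbp2 was higher in both, at 20.5 and 42.0 CPM (1.04) in the first and 12.1 and 24.9 CPM (1.04) in the second. The small remaining cluster, led by Depdc1a, Ube2c and Spc25 (52 and 35 cells), went the other way for Cxcl9, at 116 and 47.7 CPM (log2 ratio -1.28, interval -1.95 to -0.66), but 1 cell held 90 of its 106 UMIs in WT_LW, and without the richest cell of each library the levels were 18.5 and 30.9 CPM. Its Cxcl10 was at 507 and 456 CPM (-0.15) and its Gbp2 at 13.2 and 8.84 CPM, from 12 and 5 UMIs. The differences between the clusters were not tested.

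**Figure D4:**
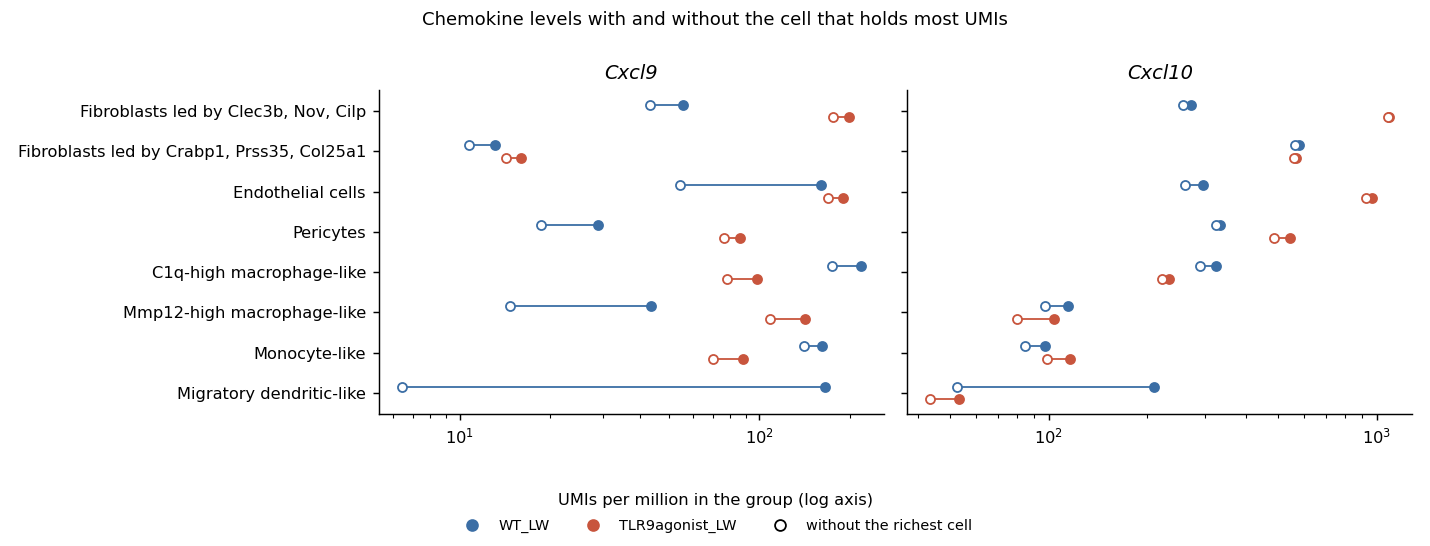
Levels of Cxcl9 and Cxcl10 in 8 groups of cells, in CPM on a log axis, with all cells (filled) and without the 1 cell that held most UMIs of the gene (open), WT_LW in blue and TLR9agonist_LW in red. Long lines mark values that rest on 1 cell, such as Cxcl9 of migratory dendritic-like cells in WT_LW (166 CPM, and 6.41 without it), while both genes of the fibroblasts led by Clec3b, Nov and Cilp lie further right in TLR9agonist_LW either way.

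Among macrophages and dendritic cells, Cxcl9 was at 218 and 98.2 CPM in C1q-high macrophage-like cells (175 and 77.9 CPM without the richest cell of each library) and at 161 and 88.4 CPM in monocyte-like cells. It was at 43.4 and 142 CPM in Mmp12-high macrophage-like cells, where 1 cell held 82 of the 124 UMIs of WT_LW, and at 14.8 and 108 CPM without the richest cells. Small sub-clusters led by interferon-induced genes had the highest levels in the control: C1q-high cells led by Ifit2, Ifit3b and Ifit3 (37 and 60 cells) had 863 and 110 CPM of Cxcl9, 1294 and 256 CPM of Cxcl10 and 298 and 99.6 CPM of Gbp2. Monocyte-like cells led by Rsad2, Isg20 and Ly6c2 (35 and 20 cells) had 712 and 129 CPM of Cxcl9. The levels of these small sub-clusters were not recomputed without their richest cells. Type 1 dendritic-like cells, a subset that primes CD8 T cells, had 76.9 and 78.7 CPM of Cxcl9 and 33.4 and 124 CPM of Cxcl10, with 35 of the 93 Cxcl10 UMIs of TLR9agonist_LW in 1 cell. The cells led by Lyz1, Tppp3 and Fn1 (122 and 40 cells) had 180 and 641 CPM of Cxcl10.

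How often both chemokines were found in the same cell differed by class. In thinned endothelial cells of TLR9agonist_LW, Cxcl10 was detected in 75.5% of cells with Cxcl9 and in 27.6% of the others. In WT_LW the shares were 63.6% and 12.6%. In fibroblasts of TLR9agonist_LW they were 57.9% and 46.3%, and in WT_LW 19.4% and 28.9%, the former from only 31 cells with Cxcl9. Macrophages and dendritic cells with Cxcl9 had Gbp2 in 30% of cells in TLR9agonist_LW and 29.0% in WT_LW, against 4.8% and 4.6% of those without.

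Cxcr3 was held by T and NK cells, 85.5% and 83.9% of its UMIs, and was at 55.0 and 26.7 CPM there, a log2 ratio of -1.05 (-1.20 to -0.89) or -0.78 relative to the median gene. The thinned shares were 8.25% and 3.64%, against 0.35% and 0.0857% in fibroblasts, which should lack it. In CD8-like cells it was at 85.0 and 101.6 CPM (0.26, -0.12 to 0.63), in the subset led by Ifitm1, Ifitm2 and Fam78a at 93.2 and 82.6 CPM, in Treg-like cells at 68.1 and 51.7 CPM and in NK-like cells at 54.1 and 40.1 CPM. In CD4 effector-like cells it was at 54.1 and 26.8 CPM (-1.01, -1.34 to -0.69). γδT17-like cells had 6.76 and 1.96 CPM. Without the γδT17-like cells Cxcr3 was at 61.2 and 43.2 CPM (-0.50). In thinned T and NK cells of TLR9agonist_LW, Cxcr3 was found in 12.1% of cells with Ifng and 3.13% of those without. In WT_LW the shares were 11.6% and 7.69%, and the 95% intervals did not overlap in either library. The part of the subset shares in this was not tested. In CD4 effector-like cells the shares were 5% and 4.29% in TLR9agonist_LW and 10.8% and 7.61% in WT_LW. In thinned CD8-like cells of TLR9agonist_LW Cxcr3 was found in 20% of cells with Ifng and 16.0% of those without, and in WT_LW in 12.2% and 14.1%. In the subset led by Klf3, Gramd3 and Gimap6 the shares were 18.2% and 8.1% in TLR9agonist_LW, from 33 cells with Ifng, and 17.2% and 10.8% in WT_LW. In the subset led by Ifitm1, Ifitm2 and Fam78a they were 15.2% and 8.4% in TLR9agonist_LW and 11.1% and 13.8% in WT_LW. The 95% intervals of both shares overlapped in each of these subsets. Type 1 dendritic-like cells also had Cxcr3, 19.2 and 36.0 CPM from 19 and 27 UMIs.

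Gbp2, a guanylate-binding GTPase of the antimicrobial defence, did not go one way in stromal cells and was lower in T and NK cells, and the differences between classes were not tested. It was higher in TLR9agonist_LW in fibroblasts (17.5 and 35.4 CPM, 1.02) and pericytes (46.3 and 78.4 CPM, 0.76). Lymphatic endothelial cells had the lower level with the agonist, 107.6 and 41.0 CPM (-1.39, -2.09 to -0.74), from 73 and 27 UMIs. It was lower in T and NK cells, at 29.97 and 14.7 CPM (-1.03, -1.24 to -0.82), with Treg-like cells at 85.1 and 44.2 CPM and γδT17-like cells at 21.2 and 6.16 CPM. In endothelial cells (158 and 151 CPM), Schwann cells (138 and 159 CPM) and macrophages and dendritic cells (42.9 and 47.6 CPM) it stayed within 1.5-fold. Within the latter it was at 24.8 and 83.7 CPM in Mmp12-high macrophage-like cells and at 79.8 and 43.6 CPM in monocyte-like cells.

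**Figure D5:**
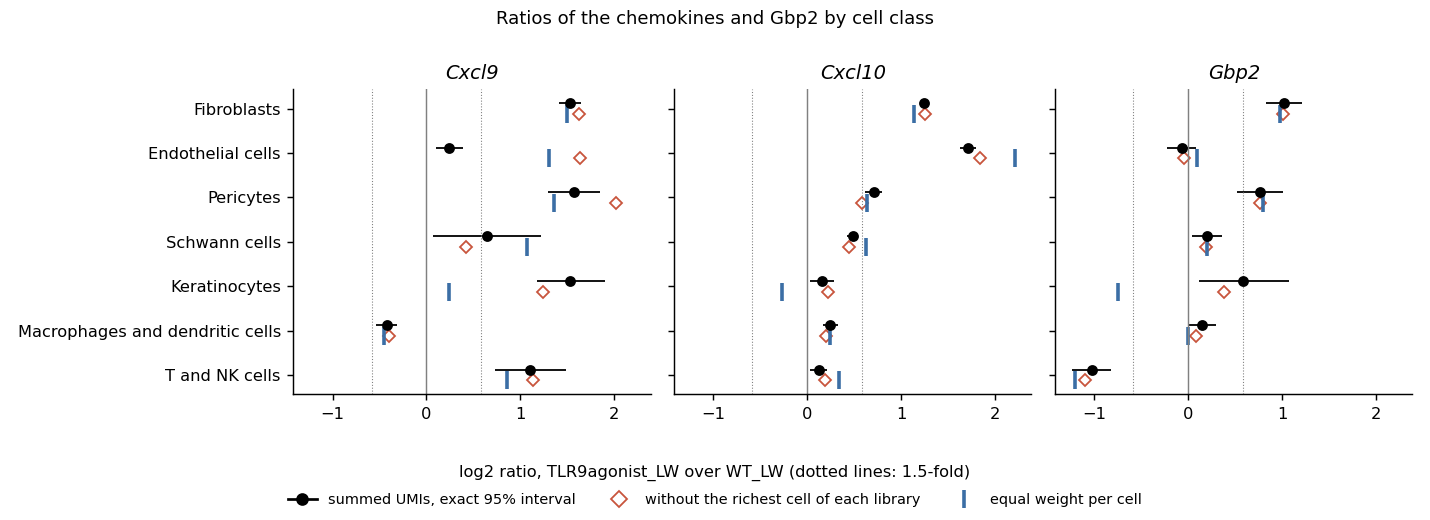
Log2 ratios of Cxcl9, Cxcl10 and Gbp2, TLR9agonist_LW over WT_LW, in 7 cell classes, from summed UMIs with exact 95% intervals (black), without the richest cell of each library (diamonds) and with equal weight for each cell (blue ticks); dotted lines mark 1.5-fold. All 3 genes lie to the right in fibroblasts (1.53, 1.24 and 1.02), and Cxcl9 of endothelial cells moves from 0.24 to 1.64 without the richest cells.

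By class, the counts of members read as follows. In fibroblasts 3 of 6 members with enough UMIs were higher (Cxcl9, Cxcl10 and Gbp2) and Ifng was lower, beside 7.84% and 24% of all genes. In pericytes the same 3 of 5 were higher and none lower, beside 6.71% and 37.3%. In endothelial cells 1 of 5, Cxcl10, was higher and none lower, beside 7.07% and 41.1%. In T and NK cells 1 of 7 was higher (Cxcl9, at a low level in which the part of free RNA was not tested). In the same cells 3 were lower (Ifng, Cxcr3 and Gbp2), beside 8.93% and 30.2%. In macrophages and dendritic cells none of 7 was higher and only Ifng was lower, from 94 and 12 UMIs, beside 6.79% and 19.7%. In Schwann cells 1 of 6 was higher and 2 were lower, beside 5.34% and 14.4%, and in keratinocytes 1 of 6 was higher and 1 lower, beside 4.56% and 48.7%. Lower genes were common in every class, so a count of lower members says little beside its background.

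Upstream of Ifng, the genes of type 1 cells did not stand below the other genes of T and NK cells as a list. Of the 11 with enough UMIs, 1 was higher and 4 were lower, beside 8.93% and 30.2% of all genes, with a median log2 ratio of -0.10 beside -0.26 for the median gene. Tbx21, the transcription factor that directs type 1 T cells, was at 30.7 and 12.1 CPM (-1.34), Eomes, which acts with it in CD8 T cells, at 6.59 and 2.37 CPM, and Il12rb1, a chain of the IL-12 receptor, at 23.3 and 10.3 CPM. Stat4, through which IL-12 signals, was higher, at 134 and 222 CPM (0.73). In CD4 effector-like cells Tbx21 was at 21.8 and 8.004 CPM and Stat4 at 182 and 381 CPM, and in CD8-like cells Tbx21 was at 90.7 and 54.4 CPM. In macrophages and dendritic cells, Il12b, a subunit of IL-12, was at 59.9 and 28.7 CPM (-1.06), Il12a at 1.90 and 3.61 CPM, and Il18, which strengthens the Ifng response, at 29.8 and 32.1 CPM.

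Among other homing genes of T and NK cells, Cxcr6, the receptor for CXCL16, was at 444 and 1150 CPM (1.37). Dpp4, the peptidase that trims CXCL10 and so weakens it, was at 21.1 and 8.62 CPM (-1.29), and Ccl5 at 987 and 630 CPM. These are levels of T and NK cells as a whole, of which γδT17-like cells made up 13.8% and 43.4%. The part of the subset shares in these levels was not tested. Dpp4 was at 18.5 and 11.3 CPM in macrophages and dendritic cells and at 30.4 and 25.6 CPM in fibroblasts.

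Among genes that interferon gamma can induce, Irf1 and most of the listed GTPases were higher in fibroblasts. Which signal lay behind these levels was not tested. There Irf1 was at 91.0 and 283 CPM (1.64), and of 11 GTPases 7 were higher and 1 was lower, beside 7.84% and 24% of all genes, with a median log2 ratio of 0.75 beside -0.27 for the median gene. In T and NK cells none of 13 GTPases was higher and 5 were lower (median -0.44 beside -0.26 for the median gene). Of all genes in these cells 8.93% were higher and 30.2% lower, so 5 of 13 lower is near that background. The lowest were Gbp8 at 40.2 and 18.4 CPM, Gbp7 at 75.4 and 34.4 CPM and Gbp4 at 70.9 and 37.9 CPM. The share of all genes past 1.5-fold was not computed within subsets, so medians are given for them in place of counts. In γδT17-like cells, which made up 13.8% and 43.4% of T and NK cells, the median GTPase ratio was -1.10 beside -0.20 for their median gene. It was -0.14 in CD4 effector-like cells, as for their median gene, and -0.03 beside -0.08 in cycling cells. CD8-like cells had -0.56 beside -0.05, and the subset led by Klf3, Gramd3 and Gimap6 -0.19 beside -0.05. None of 12 genes of antigen processing and effector function was higher in T and NK cells and 7 were lower (median -0.63). In γδT17-like cells alone the median of this list was -1.08 beside -0.20 for their median gene. The lower genes of T and NK cells were led by the immunoproteasome subunit Psmb10 at 76.4 and 31.7 CPM. Next were Tapbp, which loads peptides on class I molecules, at 127 and 59.7 CPM, and Serpina3g at 30.5 and 14.5 CPM. Socs1, the feedback inhibitor of the pathway, was at 65.9 and 33.6 CPM (-0.97) and Irf1 at 98.2 and 73.3 CPM, and of 7 signalling genes none was higher and 1 was lower. The difference between fibroblasts and T and NK cells was not tested.

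In macrophages and dendritic cells the signalling genes stayed within 1.5-fold, 0 of 7 higher and 0 lower, beside 6.79% and 19.7% of all genes, with Irf1 at 89.1 and 91.6 CPM and Socs1 at 50.6 and 52.9 CPM. Of 12 GTPases 2 were higher, Iigp1 at 17.9 and 37.5 CPM and Tgtp2 at 2.65 and 4.93 CPM, and none was lower. Of 14 antigen processing and effector genes 2 were higher and 3 lower, the latter near the background. Nos2, which makes nitric oxide, was at 1.55 and 13.4 CPM (3.11) and Cd274, the checkpoint ligand PD-L1, at 114 and 190 CPM. Ciita, the regulator of class II genes, was at 40.5 and 19.1 CPM (-1.08), Tapbp at 199 and 122 CPM and Psmb10 at 115 and 73.6 CPM.

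In endothelial cells, where 7.07% of all genes were higher and 41.1% lower, Irf1 was at 203 and 316 CPM (0.64). Of their 12 GTPases 2 were higher and 2 lower, and of 13 antigen processing and effector genes 2 were higher and 3 lower. Of 7 signalling genes 4 were higher and 1 was lower, with a median log2 ratio of 0.64 beside -0.36 for the median gene. Of the GTPases, 10 lay above the median gene. Gbp2 and most GTPases stayed within 1.5-fold in these cells, while Cxcl10 was at 295 and 966 CPM. In pericytes 2 of 7 signalling genes were higher and none lower, and 3 of 10 GTPases were higher, among them Gbp5 at 18.5 and 63.3 CPM, and 1 was lower, beside 6.71% and 37.3% of all genes. Schwann cells had 3 of 7 signalling genes higher and none lower, and 4 of 11 GTPases higher and 1 lower, beside 5.34% and 14.4%. Keratinocytes had 2 of 7 signalling genes higher and 1 lower, and 0 of 7 GTPases higher and 5 lower, beside 4.56% and 48.7%.

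Across the 19 groups of cell class and library with enough UMIs, Pearson's r of log2(CPM + 1) described which genes ran most like each member; the groups of a class share their cell type and those of a library their depth and free RNA. Ifng ran most like Ptprcap (0.948), Cd8b1 (0.948) and Gimap7 (0.943), and Cxcr3 like Gm11110 (0.935), Fam78a (0.918) and Arhgap27os3 (0.918). Gbp2 ran most like Gbp5 (0.911), Xaf1 (0.898) and Ifit1 (0.897). Cxcl9 ran most like Cfb (0.850), Itga5 (0.8003) and Phf11d (0.782), and Cxcl10 like Gulp1 (0.887), Zfp383 (0.885) and Csrp2 (0.865). For Ifngr1 they included Smap2 (0.920) and AW112010 (0.914), and for Ifngr2 AI607873 (0.891), Adap2 (0.853) and Ggt5 (0.849). Between members, r was 0.847 for Ifngr1 with Cxcr3, 0.776 for Ifng with Cxcr3, 0.689 for Cxcl10 with Gbp2 and 0.473 for Cxcl9 with Cxcl10.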

How the data were processed

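The deposited files hold whole-number UMI counts that the authors made for every cell barcode called as a cell, with no normalization. Per the labels, reads were processed with fastp, Cell Ranger and Seurat on mm9, and the file header names cellranger 4.0.0. The counts hold no coordinates, so the RefSeq windows on GRCm38.p6 are independent of them. The 10x kit counts 3′ ends, so levels of different genes were not compared.

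Cells were kept from 500 UMIs and 300 genes upward when mitochondrial UMIs did not exceed 15% (11443 and 13206 of 12800 and 13751 deposited cells), and the 1048 and 1395 cells with the highest Scrublet-type doublet scores were removed (0.8% per 1000 cells). Counts were log-normalized to 10000 per cell, and 2000 variable genes without the members and pathway lists, 30 components, a Harmony implementation written for these data, 20 neighbours and Leiden resolution 1 gave the clusters; T and NK cells, and macrophages and dendritic cells, were clustered again with 1500 genes and 20 components. Clusters were named from at least 3 markers unless markers of another type led. Sub-clusters left without a name were called by their leading genes. Set aside were 711 and 730 cells. They lay in clusters with few UMIs and no leading marker of their own, with under 20 cells, or led by markers of another class.

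UMIs were summed per class or subset. Levels have Poisson, shares Clopper-Pearson and ratios conditional binomial 95% intervals, all exact. Thinning to 1500 UMIs per cell preceded each comparison of detection. Clustering ran in scanpy 1.11.5 with leidenalg 0.10.2 and scikit-learn 1.9.0, statistics in scipy 1.17.1 and pandas 2.3.3 under Python 3.11.15, and figures in matplotlib 3.10.9, and the ratio code was tested on simulated data. The members, the marker and pathway lists and the tests were chosen with earlier results of these data known. Named were the 7 members, up to 3 genes of a list with the highest and lowest ratios in both large immune classes, list genes with a direct role beside a member, and the 3 genes most like each member; list genes named in fibroblasts, endothelial cells, pericytes and T cell subsets, and sub-clusters, were chosen after their values were seen. Certain genes are not reported here.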

Additional observations from a re-analysis of the deposited data

Results flagged for a closer look

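For 5 of the 7 genes, groups of cells with at least 50 UMIs went opposite ways by at least 1.5-fold. With 1 library per group none of these differences was tested. Each is given between the group with the highest and the one with the lowest log2 ratio, as the difference of both ratios. The groups are cell classes together with their own subsets. Cells of a subset thus count again in their class, and the tallies of groups are not of separate cells.

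Cxcl9 differed most, by 6.70 between Mmp12-high macrophage-like cells (1.71) and migratory dendritic-like cells (-4.99), with 9 of 17 groups higher in TLR9agonist_LW and 5 lower. In the migratory dendritic-like cells of WT_LW, 128 of 133 UMIs lay in 1 cell. Gbp2 differed by 4.03 between the cells led by Lyz1, Tppp3 and Fn1 (2.24) and γδT17-like cells (-1.79), with 4 of 22 groups higher and 9 lower. Cxcl10 differed by 3.87 between type 1 dendritic-like cells (1.89) and migratory dendritic-like cells (-1.98), with 10 of 29 groups higher and 2 lower. In the latter, 127 of 168 UMIs of WT_LW lay in 1 cell. Ifngr1 differed by 3.65 between plasmacytoid dendritic cells (1.20, from 19 and 14 cells) and the cells led by Lyz1, Tppp3 and Fn1 (-2.45), with 4 of 30 groups higher and 8 lower. Ifngr2 differed by 2.80 between migratory dendritic-like cells (0.78) and the cells led by Lyz1, Tppp3 and Fn1 (-2.02), with 1 of 26 groups higher and 5 lower.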

How the results depend on the processing

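No paired analysis was possible because each group had 1 library, and no library could be left out. Of 418 values of 60 results under the alternatives, 272 stayed within the counting interval of the main value and 146 moved beyond it. The direction of the ratios was the same for 42 of 42 at Leiden resolution 2, with doublets kept, without Harmony and without the richest cells, for 40 of 40 with the stricter filter (at least 1500 UMIs), for 37 of 42 with equal weight per cell, 38 of 42 relative to the median gene and 37 of 40 with cells classed one by one by markers. The exceptions were ratios of Gbp2 in all cells, endothelial cells, Schwann cells, keratinocytes, and macrophages and dendritic cells, of Cxcl10 in keratinocytes, of Ifngr1 in T and NK cells, of both receptor genes in macrophages and dendritic cells, and of Cxcl9 in the latter. The alternative without the richest cell, and those for stromal classes and T cell subsets, were chosen after seeing the data.

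Over all cells, ratios relative to the median gene were -1.07 for Ifng, -0.013 for Ifngr1, -0.0036 for Ifngr2, 0.84 for Cxcl9, 1.19 for Cxcl10, -0.96 for Cxcr3 and 0.044 for Gbp2. With equal weight per cell they were -1.32 for Ifng, -0.36 for Ifngr1 and -0.28 for Ifngr2, and without the richest cells -1.56 for Ifng and 0.55 for Cxcl9. In T and NK cells, Ifng was at -1.29 with the stricter filter, -0.77 with marker classes, -0.82 relative to the median gene and -1.20 without the richest cells, and Cxcr3 at -1.21, -0.66 and -0.78 under the first 3 and -1.23 with equal weight. In macrophages and dendritic cells, Cxcl9 was at 0.40 with marker classes and -0.16 relative to the median gene, and Cxcl10 at 0.15 with doublets kept, 0.72 with marker classes and 0.51 relative to the median gene. The marker classes put only 446 and 53 cells into this class and 3397 and 4519 into fibroblasts.

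In fibroblasts, Cxcl9 was at 0.77 with marker classes and 1.80 relative to the median gene, Cxcl10 at 1.31 with the stricter filter, 1.14 with doublets kept, 1.13 with equal weight and 1.51 relative to the median gene, and Gbp2 at 0.43 with marker classes and 1.29 relative to the median gene. Cxcl10 of endothelial cells was at 1.58 with doublets kept, 2.21 with equal weight, 2.07 relative to the median gene and 1.83 without the richest cells.

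The share of Ifng in T and NK cells was 68.5% and 64.3% with the stricter filter, 83.9% and 85.0% with doublets kept, 90.8% and 93.2% at Leiden resolution 2 and 70.9% and 58.5% with marker classes. The stricter filter gave no CD8-like subset. The share of Cxcl9 in macrophages and dendritic cells was 45.6% and 11.6% with doublets kept and 12.4% and 1.03% with marker classes, and in WT_LW 50.6% both without Harmony and at Leiden resolution 2. That of Cxcl10 was 13.3% and 4.12% with doublets kept, 3.19% and 0.26% with marker classes, and in WT_LW 14.4% without Harmony and 14.6% at Leiden resolution 2. Depth limits Cxcr3, whose UMIs in NK-like cells came to 51 and 11, and Cxcl9 in small subsets.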

Other observations

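Among the smaller cell classes, plasmacytoid dendritic cells, which carry TLR9 in the mouse and make type I interferon when it is activated, came to only 19 and 14 cells. Ifngr1 was at 183 and 420 CPM in them, from 33 and 48 UMIs, and no Ifng UMI was found in either library. Neutrophils (64 and 226 cells) had Ifngr2 at 110 and 105 CPM and Gbp2 at 116 and 64.3 CPM, from 22 and 36 UMIs. Mast cells (181 and 437 cells) had Cxcl10 at 48.7 and 88.4 CPM and no Cxcr3 UMI. Langerhans-like cells (142 and 57 cells) had 2 and 4 UMIs of Cxcl9, and Ifngr1 at 129 and 79.0 CPM. In the cells set aside, Ifng was at 60.5 and 21.9 CPM.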
